A study of Mus musculus with 2 samples.

Results

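The replication-dependent histone genes are described here in 1 mRNA-seq library of Dnmt1+/+ mouse embryonic fibroblasts (MEFs) and 1 library of Dnmt1-/- MEFs. The members are all entries of the deposited gene table, whatever their status, with a gene symbol that begins with Hist1h, Hist2h, Hist3h or Hist4h. This rule found 41 of 29126 entries. It used no expression value. MEFs are fibroblasts grown from mouse embryos. The cells called Dnmt1-/- carry a hypomorphic Dnmt1 allele in homozygous form (Dnmt1 is the maintenance DNA methyltransferase), and the MEFs of both genotypes are null for the gene encoding p53. Age and strain are not given in the sources used here, and each genotype is represented by 1 sample of cultured cells. Values are RPKM, in which the reads on an entry are divided by the length of the entry and by the size of the library. Because there are no replicates, no difference could be tested, and all differences below describe these 2 libraries.

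Replication-dependent histone genes supply the linker histone H1 and the core histones H2A, H2B, H3 and H4 while DNA is copied in S phase. They are short, lie in clusters and mostly lack introns. Their mRNAs are the best known exception to polyadenylation in animal cells, since the transcript is cleaved just after a conserved stem-loop that is bound by the stem-loop binding protein, Slbp. Some of these genes can also be read through to a polyadenylation signal further on, mainly in cells that have left the cell cycle. Replication-independent variants such as H3.3 and H2A.Z are made from ordinary genes with introns and polyadenylated mRNAs. The libraries are described as mRNA libraries, and the sources used here do not say how mRNA was selected. A selection for poly(A) tails would leave most of the mRNA of these genes unmeasured, so the RPKM of a member cannot be read as the total amount of its mRNA.

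The stem-loops are shown because most transcripts of these genes are cleaved just after them. They were sought in histone cluster genes only, so other genes are not compared. Each was read from the mm9 genome after the coding end of its gene. The stem and loop are in capitals, with 5 flanking bases on each side in lower case. A stem-loop was found for 36 of the 41 entries. The most common form lies in the most abundant member (Hist1h2bc, H2B, capitals at chr13:23776516-23776531), in the member with the largest difference upwards (Hist2h2aa1, H2A, chr3:96049955-96049970) and in that with the largest difference downwards (Hist1h3h, H3, chr13:21809964-21809979). Hist2h2ab (H2A, chr3:96024256-96024271) has another loop. The H4 genes carry other stems, shown by Hist1h4m (chr13:21903998-21904013) and Hist1h4b (chr13:23849235-23849250). All 6 are on the plus strand.
Hist1h2bc: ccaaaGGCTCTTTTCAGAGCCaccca
Hist2h2aa1: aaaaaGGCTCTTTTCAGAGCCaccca
Hist1h3h: tcaaaGGCTCTTTTCAGAGCCaccca
Hist2h2ab: aaaaaGGCTCTTTTAAGAGCCaccaa
Hist1h4m: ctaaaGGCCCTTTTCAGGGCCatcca
Hist1h4b: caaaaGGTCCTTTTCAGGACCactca

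Over the annotated histone cluster genes, 38 carry the form of Hist1h2bc, 9 that of Hist2h2ab, 8 that of Hist1h4m and 2 that of Hist1h4b. The 8 and the 2 are H4 genes. The loci of the deposited entries do not always reach the stem-loop. Of the 36 entries with one, 18 ended before it, 10 ended within 200 bases after it and 8 ran over 200 bases past it. The locus of Hist1h2bc ran 7818 bases past its stem-loop, that of Hist3h2a 1487 bases and that of Hist1h1c 840 bases. A polyadenylation signal (AATAAA or ATTAAA) lay in the last 40 bases of 13 of the 41 members (31.7%), against 64.8% of 22380 protein-coding genes.

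By cluster, 32 entries lay in Hist1 on chromosome 13 (mm9, 21808267 to 24026720), 7 in Hist2 on chromosome 3 (96023839 to 96074115) and 2 in Hist3 on chromosome 11 (58762413 to 58770176). By type, 4 entries were H1, 10 H2A, 14 H2B, 8 H3 and 5 H4. Status, which the authors' program gives to each entry, was OK for 37 and NOTEST, given to entries with too few reads for a comparison, for 4. The 4 were Hist1h1t and Hist3h2ba, listed at 0 in both libraries, Hist1h2aa at 0.0422 RPKM in Dnmt1+/+ and 0.0742 in Dnmt1-/- MEFs, and Hist2h2bb at 0.0319 and 0.0329. Hist1h1t and Hist1h2aa are known for their expression in the testis. Of the 37, 19 reached 1 RPKM in at least 1 of the libraries and 18 stayed under it in both.

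An entry under the same symbol was analysed for 39 of 70 annotated histone cluster symbols, and the division followed the strand. Of the annotated symbols on the plus strand 36 of 37 had an entry, and of those on the minus strand 3 of 33. The 1 plus-strand symbol without an entry of its own, Hist1h2br, lies at the locus of 1 of the 2 entries named Hist1h2bq. Protein-coding genes with 1 exon were divided in the same way genome-wide, with an entry for 936 of 1429 (65.5%) on the plus strand and 91 of 1429 (6.37%) on the minus strand. Protein-coding genes with more exons were not, at 92.9% and 92.3%. The other 31 histone cluster symbols have no entry of their own, and sums over clusters or types cover the analysed entries only. Some of them lie within analysed loci, so a sum can include their reads. Besides Hist1h2br, these include Hist2h3c2 and Hist2h2aa2 in Hist2h3c2-ps, and Hist1h1e in Hist1h2be.

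**Figure D1:**
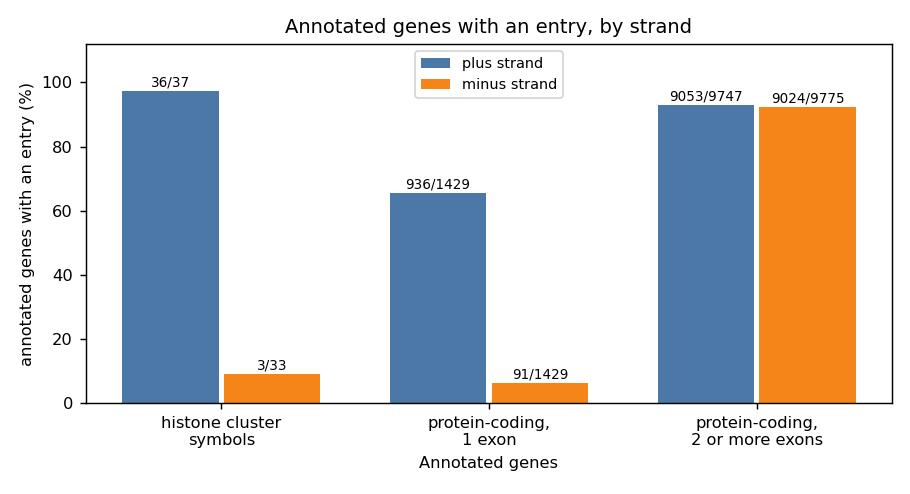
Bars give the percentage of annotated genes with an entry in the table, by strand, for histone cluster symbols and for protein-coding genes with 1 exon or with 2 or more exons, with the counts above each bar. For histone cluster symbols the plus strand stands at 36 of 37 and the minus strand at 3 of 33.

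The members were low in both libraries. The 37 entries with status OK ranged from 0.101 to 8.19 RPKM in Dnmt1+/+ MEFs, with a median of 0.981, and from 0.122 to 10.3 RPKM in Dnmt1-/- MEFs, with a median of 0.890. Their RPKM summed to 57.5 in Dnmt1+/+ and 56.6 in Dnmt1-/- MEFs. The highest member, Hist1h2bc, lay below 45.0% of all entries with a symbol and status OK in Dnmt1+/+ and below 37.8% in Dnmt1-/- MEFs. The 12 replication-independent variants with status OK summed to 740.6 and 787.0 RPKM, which is 12.9 times and 13.9 times the sum of the members.

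**Figure D2:**
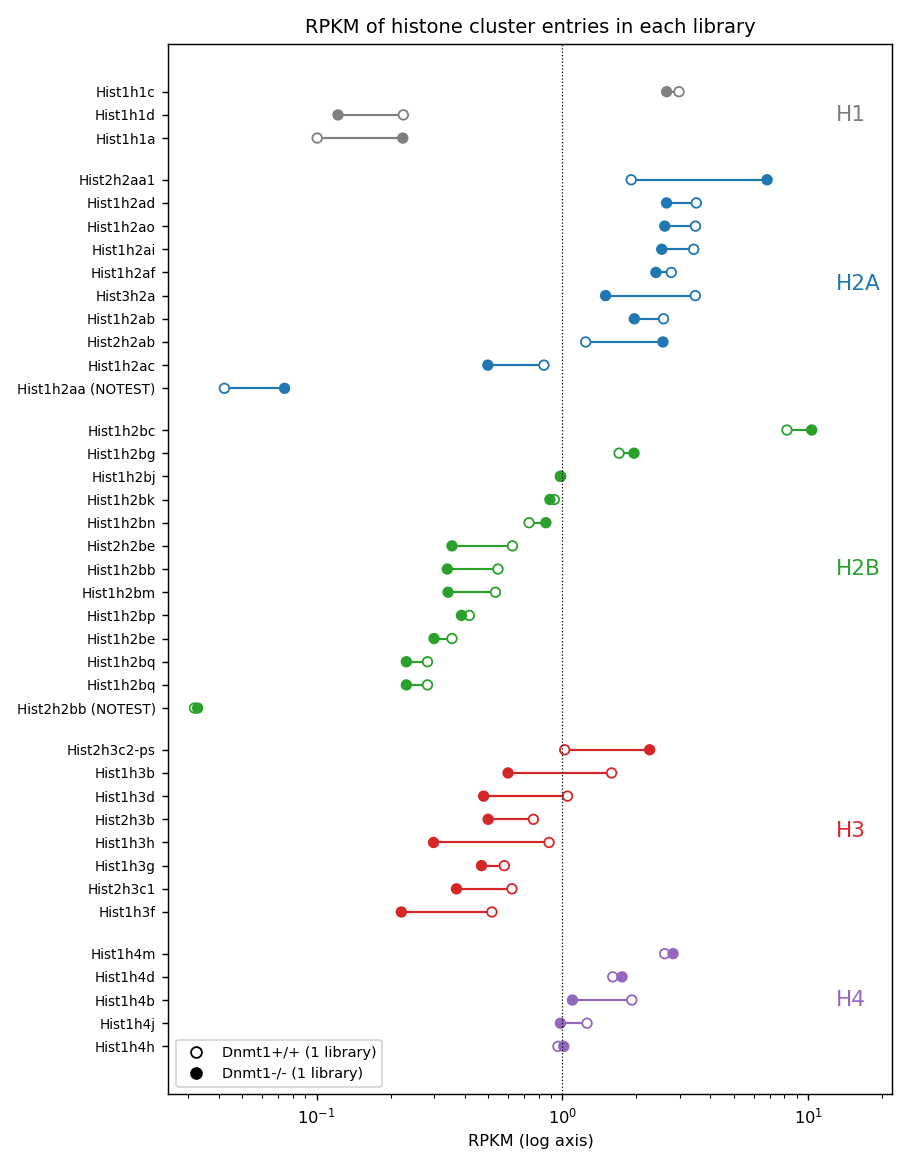
RPKM on a log axis for the 39 histone cluster entries with values above 0, grouped by type, with an open point for the Dnmt1+/+ library and a filled point for the Dnmt1-/- library. The dotted line marks 1 RPKM, and Hist1h2bc stands above all other members in both libraries.

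Differences are given as log2(RPKM + 0.1) in Dnmt1-/- minus Dnmt1+/+ MEFs, a scale that understates the difference of entries near 0.1 RPKM. A difference past 2-fold on this scale was counted. Among the 19 entries that reached 1 RPKM, 2 lay past 2-fold upwards in Dnmt1-/- MEFs (Hist2h2aa1 and Hist2h3c2-ps) and 2 past 2-fold downwards (Hist1h3b and Hist3h2a). Over all 11244 entries under the same filter, 8.47% lay past 2-fold upwards and 10.9% downwards, so the 2 members of 19 in each direction (10.5%) were close to the background. With a pseudocount of 1 in place of 0.1, Hist2h2aa1 stayed past 2-fold (1.43) and the other 3 did not, at 0.69 for Hist2h3c2-ps, -0.84 for Hist3h2a and -0.69 for Hist1h3b. Without the filter, 2 of 37 members were higher (5.41%) and 3 lower (8.11%), the third being Hist1h3h, against 9.92% and 11.1% of 14865 entries. Entries whose mean RPKM fell in the same range as the members, from 0.162 to 9.26, were past 2-fold in 15.5% of cases upwards and 18.6% downwards. The members are few and share sequence, and the difference between these shares was not tested.

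The median difference of the 37 members was -0.26, and 26 of them were lower in Dnmt1-/- MEFs (70.3%). Over all 14865 entries with a symbol and status OK the median was -0.09 and 55.5% were lower. Over the 6460 of these in the members' range of mean RPKM the median was -0.24 and 61.2% were lower. The median of the members thus lay next to that of the entries in their range. Those entries had higher RPKM medians, at 2.71 in Dnmt1+/+ and 2.34 in Dnmt1-/- MEFs, against 0.981 and 0.890 for the members. The median over the 11244 entries past the filter was -0.14, and differences of single members are to be read against this shift. By type, the median was -0.78 for H3, -0.39 for H2A, -0.16 for H1, -0.14 for H2B and 0.07 for H4.

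**Figure D3:**
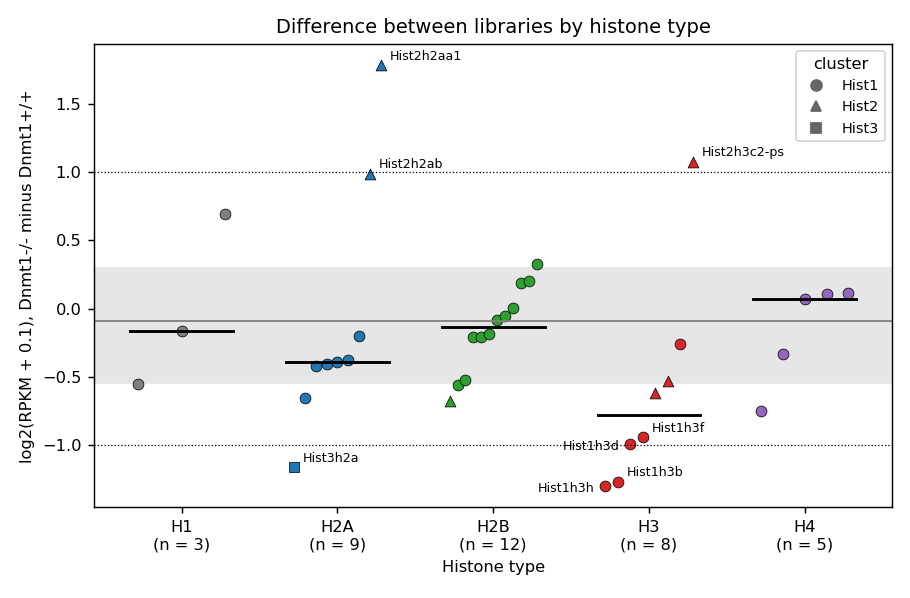
Each point is 1 histone cluster entry with status OK, placed by its difference of log2(RPKM + 0.1) between the libraries and by histone type, with the cluster as the symbol and black bars for the median of each type. The grey line and band give the median and the quartiles of all 14865 entries, the dotted lines mark 2-fold, and the H3 entries other than Hist2h3c2-ps all lie below 0.

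H3, which carries the lysine residues marked by Polycomb and other chromatin modifiers, had the lowest median difference of the 5 types. With a mean of at least 1 RPKM required, only Hist1h3b and Hist2h3c2-ps remained of H3, their median was -0.095, and the order of the types turned, with -0.38 for H2A and -0.16 for H1. Of 8 entries with status OK, 7 were lower and 1 was higher. Hist1h3b was at 1.59 RPKM in Dnmt1+/+ and 0.601 in Dnmt1-/- MEFs, a difference of -1.27. Hist1h3h, under the filter, was at 0.883 and 0.299 RPKM, a difference of -1.30. Hist1h3d was at 1.05 and 0.478 RPKM, and its difference of -0.99 lay just inside 2-fold. These 3 genes share most of their sequence, with 69.7% of the 50-base words of Hist1h3b also in Hist1h3h and 64.9% of those of Hist1h3d also in Hist1h3b. Their values are thus not independent of each other, since a 50-base read from a shared stretch could come from any of them.

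The remaining H3 entries were at 0.517 to 0.763 RPKM in Dnmt1+/+ and 0.221 to 0.499 in Dnmt1-/- MEFs, apart from Hist2h3c2-ps. They were Hist1h3f (-0.94), Hist2h3c1 (-0.62), Hist2h3b (-0.53) and Hist1h3g (-0.26), all below the filter. Hist2h3c2-ps was at 1.02 and 2.26 RPKM, a difference of 1.07, the only H3 entry with a higher value in Dnmt1-/- MEFs. Its symbol marks a pseudogene, and its locus, on the minus strand, also holds the H2A gene Hist2h2aa2, so this value cannot be assigned to H3 alone. Without it, all 7 H3 entries were lower, with a median of -0.94. Their RPKM summed to 6.001 in Dnmt1+/+ and 2.94 in Dnmt1-/- MEFs, a ratio of 0.490. With it, the H3 sums were 7.02 and 5.20 RPKM, a ratio of 0.741. All words of Hist2h3c1 and 94.2% of those of Hist2h3b also lie in Hist2h3c2-ps. The lower values of Hist2h3c1 and Hist2h3b are thus not independent of the higher value of Hist2h3c2-ps.

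The H2A entries differed by cluster. In Hist1 all 6 with status OK were lower in Dnmt1-/- MEFs, by -0.20 to -0.66, and none passed 2-fold. Hist1h2ad was at 3.50 RPKM in Dnmt1+/+ and 2.65 in Dnmt1-/- MEFs, Hist1h2ao at 3.48 and 2.61, and Hist1h2ai at 3.42 and 2.54. Hist1h2af was at 2.77 and 2.40 RPKM and Hist1h2ab at 2.58 and 1.96. Hist1h2ac was at 0.841 and 0.497 RPKM, under the filter. The nearly equal values of Hist1h2ad, Hist1h2ao and Hist1h2ai stand beside a shared sequence, since 77.7% of the words of Hist1h2ad were also in Hist1h2ai and 72.3% in Hist1h2ao. The Hist1 H2A entries summed to 16.6 RPKM in Dnmt1+/+ and 12.7 in Dnmt1-/- MEFs.

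In Hist2 the H2A entries were higher in Dnmt1-/- MEFs. Hist2h2aa1 was at 1.90 RPKM in Dnmt1+/+ and 6.80 in Dnmt1-/- MEFs, a difference of 1.78 and the largest of any member. It stood below the 5 Hist1 H2A entries past the filter in Dnmt1+/+ MEFs and above all of them in Dnmt1-/- MEFs. Hist2h2ab was at 1.24 and 2.56 RPKM, and its difference of 0.99 lay just inside 2-fold. All words of Hist2h2aa1 occur elsewhere in the genome, whereas 24.1% of those of Hist2h2ab do. The locus of Hist2h2aa1 also overlaps the annotated gene Hist2h3c1. In Hist3, Hist3h2a was at 3.47 RPKM in Dnmt1+/+ and 1.498 in Dnmt1-/- MEFs, a difference of -1.16, with 2.16% of its words found elsewhere. The H2A sum over all clusters was 23.2 RPKM in Dnmt1+/+ and 23.5 in Dnmt1-/- MEFs, a level total made of entries that differed in both directions.

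H2B held the highest member and most of the low ones. Hist1h2bc was at 8.19 RPKM in Dnmt1+/+ and 10.3 in Dnmt1-/- MEFs, a difference of 0.33. Hist1h2bg was at 1.70 and 1.96 RPKM, a difference of 0.19. The other 10 entries with status OK did not reach 1 RPKM in either library, and they ranged from 0.283 to 0.981 RPKM in Dnmt1+/+ and from 0.232 to 0.984 in Dnmt1-/- MEFs. The highest of these was Hist1h2bj, at 0.981 and 0.984 RPKM, and the largest difference among them was -0.67 for Hist2h2be. No H2B entry passed 2-fold. The 2 entries named Hist1h2bq were listed at identical values and hold the same sequence, so they are 1 measurement. The entry Hist1h2be, at 0.356 and 0.301 RPKM, spans 38889 bases and also holds the linker histone gene Hist1h1e on the same strand. The H2B median turned from -0.14 to 0.01 once the shift over all entries was subtracted, so no direction is given for this type.

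All 5 H4 entries had status OK and reached about 1 RPKM, and none passed 2-fold. Hist1h4m was at 2.61 RPKM in Dnmt1+/+ and 2.82 in Dnmt1-/- MEFs, Hist1h4d at 1.602 and 1.75, and Hist1h4h at 0.959 and 1.01, differences of 0.11, 0.12 and 0.07. Hist1h4b was at 1.92 and 1.10 RPKM, a difference of -0.75, and Hist1h4j at 1.26 and 0.982, a difference of -0.33. The 2 H4 entries with the lower values in Dnmt1-/- MEFs are the 2 annotated genes with the stem of Hist1h4b printed above, while the 3 others carry the stem of Hist1h4m. Of the words of Hist1h4b, 54.5% are also in Hist1h4j, so these 2 are not independent values. Hist1h4h, with the other stem and a difference of 0.07, holds 56.6% of the words of Hist1h4b and 64.3% of those of Hist1h4j. Hist1h4m and Hist1h4d hold less, with 27.8% and 18.4% of the words of Hist1h4b. Whether the stems or the shared words bear on these differences was not tested. The H4 median of 0.07 turned to -0.11 when a mean of at least 1 RPKM was required, so no direction is given for this type either. The 5 genes differ in their coding sequence and encode 1 protein.

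Among the linker histones, Hist1h1c was at 2.98 RPKM in Dnmt1+/+ and 2.66 in Dnmt1-/- MEFs, a difference of -0.16. With 8.54% of its words found elsewhere, it is among the better separated members. Hist1h1d was at 0.226 and 0.122 RPKM and Hist1h1a at 0.101 and 0.224 RPKM, both near the pseudocount of 0.1. H1 is the only type whose 4 analysed genes encode 4 different proteins. The 10 H2A genes encode 6 proteins, the 14 H2B entries 10 and the 7 annotated H3 genes 3.

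Position was described next. The 6 Hist2 entries with status OK summed to 6.18 RPKM in Dnmt1+/+ and 12.9 in Dnmt1-/- MEFs, while the 30 of Hist1 summed to 47.8 and 42.2. Within the 50.3 kb of Hist2, some neighbours differed in opposite directions and others in the same. Hist2h2aa1 (1.78) and Hist2h3c1 (-0.62) are 635 bases apart, and Hist2h2ab (0.99) and Hist2h2be (-0.67) are 812 bases apart. Hist2h3c1 and Hist2h3b (-0.53), 21397 bases apart, were both lower, but 94.2% of the words of Hist2h3b are also in Hist2h3c1. In Hist1 the H2A and H3 neighbours differed in the same direction, by unlike amounts in 3 of the 4 pairs that follow. Hist1h2ab (-0.38) and Hist1h3b (-1.27) lie 765 bases apart, Hist1h2ai (-0.42) and Hist1h3h (-1.30) 813 bases apart, and Hist1h2ad (-0.39) and Hist1h3d (-0.99) 907 bases apart, while Hist1h2af (-0.20) and Hist1h3g (-0.26), 1114 bases apart, were nearly equal. Hist1h2ac (-0.66) and Hist1h2bc (0.33) lie 199 bases apart on opposite strands. In each of these 5 pairs of an H2A and an H3 entry the H3 entry had the lower difference. The 4 pairs of Hist1 are not independent. Hist1h2ad has 77.7% of its words in Hist1h2ai, and Hist1h2af 79.9% in Hist1h2ad. Hist1h3b has 69.7% in Hist1h3h, and Hist1h3g 57.9%. Hist2h3c2-ps (1.07) and Hist2h2aa1 (1.78), 5217 bases apart, were both higher in Dnmt1-/- MEFs. The locus of Hist2h3c2-ps also holds Hist2h2aa2, whose stem-loop and flanks equal those of Hist2h2aa1. Whether both values come from the same reads was not tested.

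The span of Hist1 held 42 entries that are not histone genes, and the spans of Hist2 and Hist3 held none. Of the 35 with a symbol, 26 were listed at 0 in both libraries and 4 reached 1 RPKM. Abt1, a gene of ribosome biogenesis, was at 5.11 RPKM in Dnmt1+/+ and 5.74 in Dnmt1-/- MEFs. The zinc finger gene Zfp322a was at 5.25 and 1.39 RPKM, a difference of -1.84 and the only 1 of the 4 past 2-fold. Zfp184 was at 1.46 and 0.763 RPKM, and Hfe, a regulator of iron uptake, at 1.502 and 0.836. The other 7 had no symbol.

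How much of each entry can be told from other loci was measured in 50-base words, the length of 1 read. The share is that of words that occur elsewhere in mm9, over the exons of 1 annotated gene per entry. It leaves out Hist2h2aa2 in Hist2h3c2-ps and Hist1h1e in Hist1h2be. This share ran from 0% (Hist1h1a, Hist1h1t and Hist2h2bb) to 100% (Hist2h2aa1, Hist1h2ao, Hist2h3c1 and both Hist1h2bq entries), and 23 of the 41 entries shared 50% or more. How the authors' programs divided reads with several positions among such entries is not given in the sources used here. Among the 14 entries with status OK and under 50%, the median difference was -0.17, 9 were lower, and Hist3h2a was the only one past 2-fold. Among the 23 with 50% or more, the median was -0.33 and 17 were lower. Most words of Hist2h2ab and Hist3h2a thus occur nowhere else, while most words of Hist2h2aa1 and the H3 entries past 2-fold do. The share counts exact matches, and where the reads of an entry fell is not known.

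**Figure D4:**
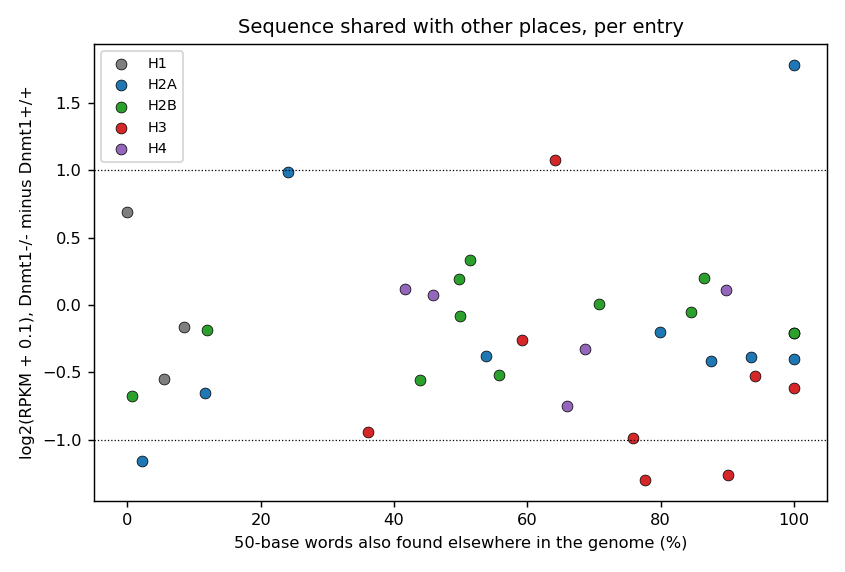
Each point is 1 histone cluster entry with status OK, coloured by type, placed by the percentage of its 50-base words that occur elsewhere in mm9 and by its difference of log2(RPKM + 0.1) between the libraries. Entries past the dotted 2-fold lines lie between 2.16% (Hist3h2a) and 100% (Hist2h2aa1).

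The promoters were described from 250 bases before to 50 bases after each annotated start in mm9, with each motif sought on both strands. CCAAT, the letters of the CCAAT box, was in 36 of 41 member promoters (87.8%) against 37.9% of 22380 protein-coding promoters. It was in all H1, H2A and H2B promoters, in 7 of 8 H3 promoters and in 1 of 5 H4 promoters. TATAAA was in 22 of 41 (53.7%) against 13.4%. ATTTGCAT, the octamer motif bound by the POU factor Oct1, was in 7 of 14 H2B and 4 of 10 H2A promoters and in none of the H1, H3 and H4 promoters, against 1.72% of all promoters. None of the 3 motifs contains another, but a base can belong to a match of more than 1 motif, and the windows of divergent genes can overlap.

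The genes that act on histone mRNA and on histones were at far higher RPKM and showed no common direction. Replication-independent variants, from a list of 18 genes with 13 found, had 11 entries past the filter and none past 2-fold, with a median difference of 0.26, or 0.12 over all 12 with status OK. Of the H3.3 genes, H3f3b was at 161 RPKM in Dnmt1+/+ and 200 in Dnmt1-/- MEFs and H3f3a at 54.8 and 35.4. H2afz, one of the 2 genes of H2A.Z, was at 186 and 156 RPKM, and H2afv, the other, at 69.0 and 64.0. The centromeric H3 variant Cenpa was at 120 and 144 RPKM.

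H2afx, whose protein is phosphorylated at DNA breaks, was at 25.1 and 20.8 RPKM. The macroH2A genes H2afy and H2afy2 were at 53.4 and 51.9 RPKM and at 8.64 and 16 RPKM, and H2afy3 was at 2.20 and 3.51. H2afj, a variant of H2A, was at 24.99 and 38.96 RPKM. H1f0, the linker histone of cells that have stopped dividing, was at 35.6 and 57.1 RPKM. The 4 with the largest differences upwards were H2afy2 (0.88), H1f0 (0.68), H2afy3 (0.65) and H2afj (0.64), and the largest downwards was H3f3a (-0.63).

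Of the genes that process or degrade histone mRNA, 22 entries passed the filter, with a median of -0.02. None lay past 2-fold upwards and 2 did downwards (9.09%), near the 10.9% of all entries under the same filter. Slbp was at 38.5 RPKM in Dnmt1+/+ and 48.8 in Dnmt1-/- MEFs, a difference of 0.34. Casp8ap2 (FLASH), which takes part in cleavage after the stem-loop, was at 9.53 and 3.14 RPKM, a difference of -1.57. Zcchc11, a uridylyl transferase that has been linked to histone mRNA decay, was at 10.5 and 2.13 RPKM, a difference of -2.24. Both also lie below the median of their list by more than any other member of it.

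Of 21 histone chaperone and deposition entries, none lay past 2-fold upwards and 2 did downwards, with a median of -0.01. The 2 were 9.52% of the entries, near the 10.9% of all entries under the same filter. Nasp, a chaperone of soluble H3 and H4, was at 114 and 48.0 RPKM, a difference of -1.25. Atrx, a remodeller that deposits H3.3 with Daxx, was at 38.1 and 11.9 RPKM, a difference of -1.67. Of 30 S-phase and proliferation entries, 2 were higher, the nucleotide synthesis genes Tk1 (12.9 and 33 RPKM) and Rrm2 (44.9 and 99.4 RPKM), and 2 lower, Pola1 of the DNA polymerase alpha complex (33.9 and 16.2 RPKM) and the cell cycle factor E2f2 (1.13 and 0.402 RPKM). Their median was 0.09, and Pcna, the replication clamp, was at 92.2 and 92.8 RPKM. Each direction held 6.67% of the S-phase entries, against 8.47% upwards and 10.9% downwards of all entries under the same filter. Pola1 stood at -1.06, close to the threshold.

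**Figure D5:**
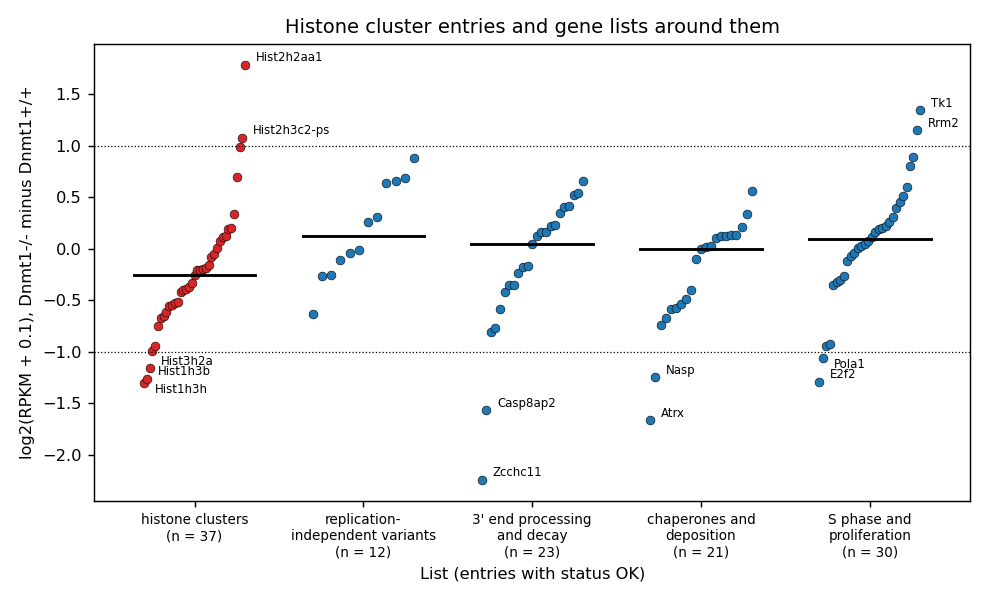
Differences of log2(RPKM + 0.1) between the libraries for the 37 histone cluster entries (red) and for the entries with status OK of 4 gene lists (blue), sorted within each list, with black bars at the medians and dotted lines at 2-fold. The medians run from -0.26 for the histone clusters to 0.12 for the replication-independent variants, and entries past 2-fold are named.

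The targeted gene and the cell identity were checked in the same libraries. Dnmt1 was at 65.2 RPKM in Dnmt1+/+ and 14.5 in Dnmt1-/- MEFs. Trp53, for which both genotypes are described as null, was at 18.6 and 19.9 RPKM, and whether these reads cover an altered part of the gene was not tested. The 9 fibroblast markers were all found, and their RPKM summed to 6289 and 4975, but 5 of the 9 lay past 2-fold. By direction, 22.2% lay upwards and 33.3% downwards, against 8.47% and 10.9% of all entries under the same filter. Lower in Dnmt1-/- MEFs were Thy1 (4.84 and 0.129 RPKM), Fn1 (663.7 and 235.5) and Col1a2 (1241 and 475.9), and higher were S100a4 (289.6 and 1262) and Pdgfra (6.95 and 18.7). The 4 haematopoietic markers summed to 0.666 and 9.71 RPKM. Csf1r was at 0.0702 and 6.08 RPKM and Cd68 at 0.596 and 3.63, while Ptprc and Cd48 were at 0 in both. The germ cell markers summed to 0.701 and 3.63 RPKM, of which Tex101 was at 0 and 3.31, and Tnp1 was at 0 in both. The sums of the epithelial, endothelial and skeletal muscle markers stayed under 1 RPKM in both libraries. The part of these differences in the histone values was not tested. A change in the share of cycling cells and a change in histone mRNA per cell cannot be told apart in bulk RNA.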

How the data were processed

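Messenger RNA was sequenced from 1 strand-specific library of Dnmt1+/+ MEFs and 1 of Dnmt1-/- MEFs, with 50 base single-end reads. The authors aligned the reads to mm9 with TopHat and used Cufflinks and Cuffdiff to make the RPKM values, deposited as 1 column per library with a status for each entry. Program versions, any further scaling and the handling of mRNA-seq reads with several positions are not given in the sources used here. The study's supplement states the mapped reads of each library, but the deposited values carry no counts per entry and low RPKM values did not resolve into whole reads, so no counting interval is given. The columns of the authors' own comparison (test statistic, p-value, q-value and fold change) were not used.

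Differences were computed as log2(RPKM + 0.1), Dnmt1-/- minus Dnmt1+/+, and called past 2-fold. Counts used entries with a symbol, status OK and at least 1 RPKM in at least 1 library, medians and sums of the members all entries with status OK. Planned medians over filtered members stand among the alternatives. The members and the gene lists were chosen with earlier results of these data known. The text names every member with status OK that passed the filter, the others by status and range, Dnmt1, all variants that passed, and from other lists the genes past 2-fold. Hist1h3h, Hist1h2ac, Hist1h2bj, Hist2h2be and other members under the filter, Slbp and Pcna were named after their values were seen.

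Stem-loops (6 base stem, 4 base loop, at most 1 mismatch in the stem) were sought in the 150 bases after the coding end, and shared 50-base words over the exons, in the mm9 genome with the GENCODE M1 annotation. Promoters are 300 bases. Alternatives were pseudocounts of 1 and 0.01, other filters, subtraction of the median of all entries, a 1.5-fold threshold, entries with joined symbols left out and, chosen after seeing the data, only members with under 50% of words shared, and the entries Hist2h3c2-ps and Hist1h2be left out. Counting was tested on simulated data. Python 3.11.15, numpy 2.4.6, pandas 2.3.3 and matplotlib 3.10.9 were used.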

Additional observations from a re-analysis of the deposited data

How the results depend on the processing

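Of 146 values of 20 summary results under the alternatives, 107 stayed within 1.5 times (counts) or 0.1 on the log2 scale (medians) and 39 moved. Of 93 values of the 19 named members, 84 stayed on the same side of the threshold in use, 3 came inside it and 6 went past it. None reversed, but a reversal could be recorded only for members past 2-fold at first. With a pseudocount of 1, 1 member was past 2-fold upwards and 0 downwards, the medians were -0.13 for all members and -0.28 for H3, and 1 S-phase entry was lower; with 0.01 the H3 median was -0.93. Under the filter of 1 RPKM in 1 library or more, the medians were 0.26 for H2B and -0.99 for H3; without it the variants had 0.12. With a mean of at least 1 RPKM the medians were 0.26 for H2B, -0.095 for H3 and -0.11 for H4, and 1 S-phase entry was lower.

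After subtraction of the median over all entries, the medians were -0.12 for all members, -0.0197 for H1, -0.25 for H2A, 0.0055 for H2B, -0.64 for H3, 0.21 for H4, 0.40 for the variants, 0.12 for processing and decay, 0.13 for chaperones and 0.23 for S phase, with 1 variant higher and 1 S-phase entry lower. At 1.5-fold, 4 members were lower, 4 variants higher and 1 lower, and 1 processing entry higher and 5 lower. Of the chaperones 4 were lower, and 5 S-phase entries were higher and 4 lower. The share of all entries past 1.5-fold was not computed, so the counts at 1.5-fold are not set against a background. With only members under 50% of shared words, 0 were higher and 1 lower. The H2A median was -0.66, over Hist3h2a, Hist2h2ab and Hist1h2ac. Of H3 only Hist1h3f remained, at -0.94 and under the filter, so this value is no median of several entries. Without Hist2h3c2-ps and Hist1h2be, 1 member was higher and the H3 median was -0.94. Apart from the smaller sets these alternatives leave, the cause of these shifts was not tested.

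No member entry had joined symbols. No paired analysis was possible because each genotype has 1 library, and leaving out a replicate was not possible for the same reason. Most members lie near or under 1 RPKM, where the unknown number of reads behind an entry limits every ratio, and 23 share 50% or more of their words with other loci.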

Other observations

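The 7 entries without a symbol inside the Hist1 span included the highest RPKM values of that span, on very short loci. An entry of 55 bases (chromosome 13, 22558936 to 22558990, mm9) was at 55356 RPKM in Dnmt1+/+ and 86932 in Dnmt1-/- MEFs, a difference of 0.65. Between 23820608 and 23821773, upstream of Hist1h1c, 3 entries of 76, 71 and 79 bases were at 593, 963 and 587 RPKM in Dnmt1+/+ and at 292, 252 and 268 RPKM in Dnmt1-/- MEFs, with differences of -1.02, -1.94 and -1.13. These loci are hardly longer than a read, and RPKM is divided by length, so the values cannot be set beside those of the histone entries. The 3 remaining entries, of 331, 3070 and 364 bases, were at 13.4, 5.04 and 1.44 RPKM in Dnmt1+/+ and at 4.69, 1.89 and 0.239 RPKM in Dnmt1-/- MEFs. They were chosen for mention after their values were seen.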
